A study of Mus musculus with 8 samples.

Results

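The tricarboxylic acid (TCA) cycle oxidises acetyl groups in the mitochondrial matrix and hands the electrons to the respiratory chain, and the malate-aspartate shuttle carries the electrons of cytosolic NADH across the inner mitochondrial membrane. Described here are 9 enzyme genes of these routes, namely Mdh1, Mdh2, Got1, Got2, Cs, Idh3a, Ogdh, Sdha and Fh1. They were chosen by name and make up 9 of the 35087 named genes in the deposited tables. All 9 passed the filter on low counts, so they are also 9 of the 15102 genes tested. The shuttle uses a pair of malate dehydrogenases and a pair of aspartate aminotransferases, one enzyme of each pair in the cytosol (Mdh1, Got1) and one in the matrix (Mdh2, Got2). Cs, Idh3a, Ogdh, Sdha and Fh1 encode matrix or inner membrane enzymes of the cycle. Granulosa cells, the somatic cells around the oocyte, are known to break down glucose and to pass pyruvate to the oocyte, and HIF1 is known to favour glycolysis over the entry of pyruvate into the cycle.

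RNA of granulosa cells was sequenced after laser microdissection from cryosections of mouse ovaries, with amplification by the Smart-seq2 method. All mice were females with both Hif1a alleles flanked by loxP sites. In the cKO group (Hif1aflox/flox with Foxl2-CreERT2, n = 2 libraries) the granulosa gene Foxl2 drives a Cre recombinase that tamoxifen activates. The WT group (Hif1aflox/flox, n = 6 libraries) lacks Cre. Tamoxifen was given to both groups, at 100 mg/kg on each of 5 days beginning at 3 weeks, and the ovaries were collected 7 days after it ended. In its genotype label the cKO group is termed a knockdown. Every sample, WT ones included, has a description with a library name starting in cKO, and groups here follow the sample titles, a doubt that bears on each comparison. The labels do not tie libraries to animals or follicle stages, so some may share an animal, and every p-value below is then too small and measures the spread between these libraries only.

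The libraries held 651426 to 2054584 reads on named genes in cKO and 1594803 to 4719293 in WT. Hif1a had 22.3 and 13.7 CPM (the read count relative to the library total, scaled by TMM, the unit of all levels below unless TPM is named) in cKO and from 35.5 to 106.2 CPM in WT, with no overlap (log2 fold change -1.84 ± 0.58, SE, edgeR adjusted p = 0.369). The Hif1a count includes reads from parts of the gene that Cre leaves in place. The granulosa gene Foxl2 was present in every library, from 88.8 CPM in cKO replicate 2 to 332 CPM in WT replicate 3. Genes with at least 5 reads numbered 12120 and 12847 in cKO and from 13597 to 14727 in WT. The 13 protein genes of the mitochondrial genome took 8.87% and 10.5% of reads in cKO and from 1.42% to 3.65% in WT. The 10 granulosa markers summed to between 1602 and 4767 CPM in cKO and between 3302 and 58198 CPM in WT, and 9 of the 10 had a lower mean in cKO. Inha was the largest part of each sum, from 652 CPM in cKO replicate 2 to 42623 CPM in WT replicate 4. The markers did not all move with the sum. Amh had 610 and 224 CPM in cKO and 767 and 1126 CPM in WT replicates 1 and 2. In WT replicates 3 to 6 it had from 2.34 to 176 CPM. In a microdissected sample, fewer cells of a type and less RNA per cell cannot be told apart.

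HIF1 binds DNA at a short core, written ACGTG or GCGTG, and both forms, which differ in the first base, were looked for on both strands in the 250 bases before each RefSeq transcription start (GRCm38.p6). Entries matched 8 of the 9 genes, and Idh3a was not matched. The stretches around each core before the shuttle enzymes Mdh1, Mdh2, Got1 and Got2 are shown because these genes form the cytosolic and mitochondrial pairs compared below. Each is written 5′ to 3′ on the strand of the gene, with the core, or its reverse complement, in capitals.
Mdh1: ctcggtggagcgACGTGtgctgtcgctca
Mdh2: gccgggtctaggGCGTGctagacaaggaa
Got1: cagcgattggaaCACGCtacgccaatcat
Got2, nearer the start: ggccgctctagcCACGCccagggaagtc
Got2, farther from the start: tttcaaactggCACGCtaggcagctgcc
The Mdh1 stretch (chr11:21572117-21572145, minus strand) has its core 199 to 195 bases before the RefSeq start. The Mdh2 stretch (chr5:135778540-135778568, plus strand) has it at 97 to 93 bases, and the Got1 stretch (chr19:43524750-43524778, minus strand) at 161 to 157 bases. The Got2 stretches (chr8:95888402-95888429 and chr8:95888624-95888651, minus strand) have it at 16 to 12 and at 239 to 235 bases. In the GENCODE M21 annotation Mdh1 (to chr11:21572367), Mdh2 (from chr5:135778480) and Got2 (to chr8:95888547) begin upstream of these RefSeq starts. The Mdh1, Mdh2 and nearer Got2 stretches therefore lie inside the genes as annotated there. ACGTG was found before 3 of the 8 matched genes (Mdh1, Ogdh and Sdha) and before 16.6% of all 32851 starts in the table. GCGTG was found before 6 of the 8 (Fh1, Got1, Got2, Mdh2, Ogdh and Sdha) and before 28.2% of all starts. The 8 genes have 13 starts in the table, 6 of them from Ogdh, so a gene with several starts had more chances of a match. Of 2 further cores known from genes of mitochondrial metabolism, GCGCATGC (NRF1) was found before Ogdh only, against 2.26% of all starts, and AAGGTCA (the estrogen-related receptors) before Got1 only, against 4.08%. A match describes letters in a window and not a bound site.

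The central comparison asked how the 9 genes differ between granulosa libraries labelled cKO and WT. All 9 had a lower fitted level in cKO, with log2 fold changes from -3.21 (Mdh1) to -0.07 (Got1) and a median of -0.79, where the median over all genes tested was -0.08 and 52.7% of genes were lower. Mdh1 had the lowest fold change, with both cKO libraries below all 6 WT libraries, and Mdh2 (-1.95) and Idh3a (-1.94) followed. Got1 had nearly equal means in the groups, and its fold change was 0.05 with DESeq2's size factors, so its sign depends on the scaling.

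No gene of the 9 passed the adjusted threshold in edgeR's quasi-likelihood test (0 of 9, against 0% of all 15102 genes). At an unadjusted p under 0.05, 3 of the 9 were lower, against 8.89% of all genes, and 0 of the 9 were higher, against 3.4%. Groups did not overlap, with cKO lower, for 1 of the 9 (Mdh1), against 6.41% of all genes, and with cKO higher for 0 of the 9, against 6.02%. DESeq2 called 1 of the 9, Mdh1 (adjusted p = 0.00195), against 3.47% of the 7757 genes to which it gave an adjusted p (3.08% lower in cKO), and limma-voom with quality weights called 0. Beside these values, the number of detected genes and the share of the mitochondrial protein genes did not overlap between the groups. Their part in the result was not tested. With a covariate for detected genes in the fit, the median of the 9 was 0.02, with 4 of the 9 lower, where that over all genes was -0.26. Among the libraries numbered 1 and 2 of both groups alone the median of the 9 was -0.44, with 7 of the 9 lower. There the median over all genes was -0.03. Without 1 cKO library the spread comes from the WT libraries alone, and the lone cKO library is assumed to vary like them. Without cKO replicate 2 the median of the 9 was -0.46, where that over all genes was -0.34. Without cKO replicate 1 the median of the 9 was -1.74, where that over all genes was -0.27.

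**Figure D1:**
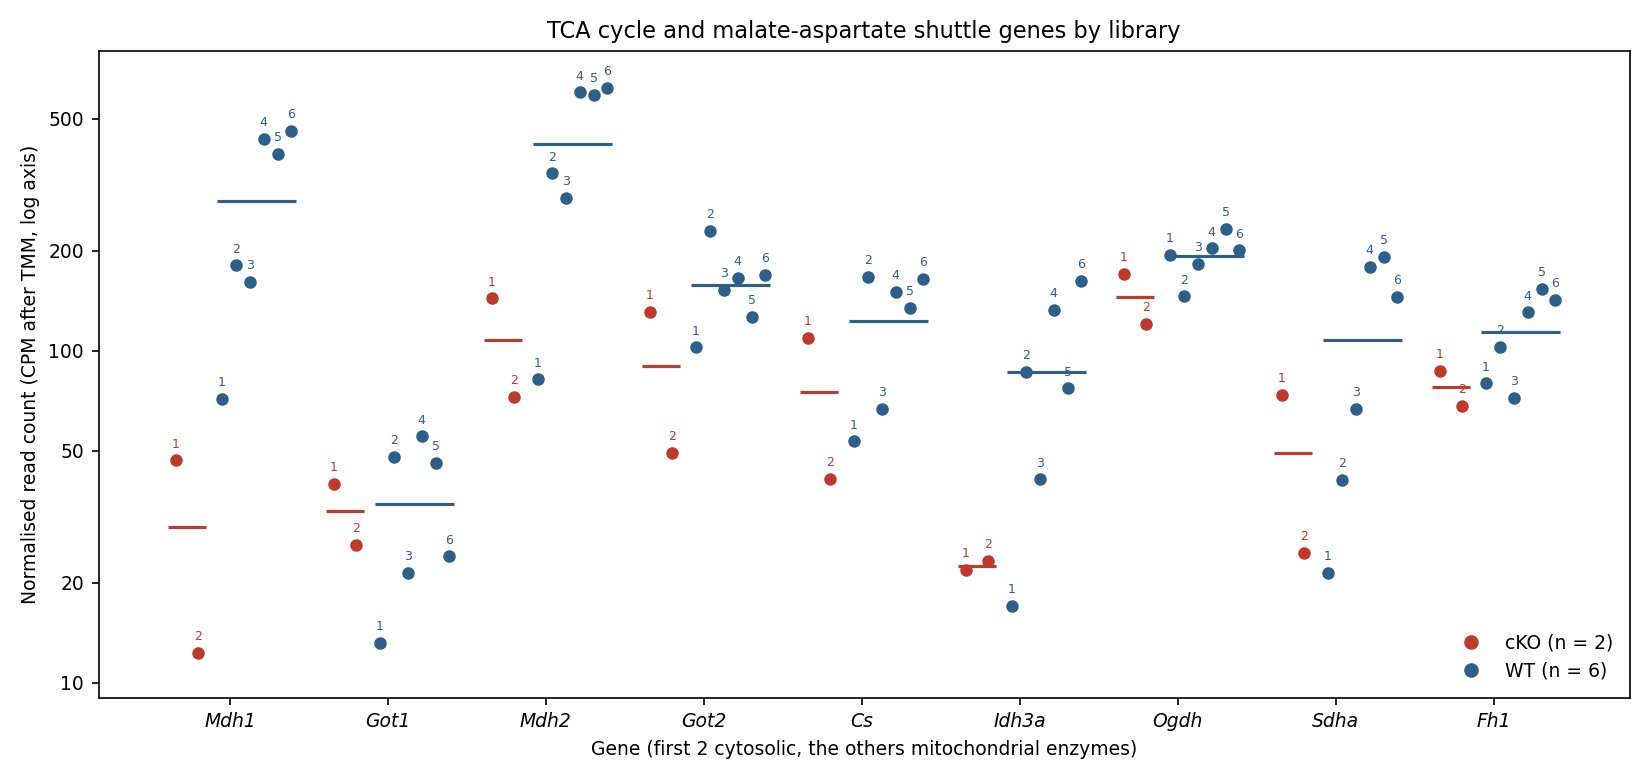
Normalised read count (CPM after TMM, log axis) of each gene in each library, with cKO in red (n = 2) and WT in blue (n = 6); numbers are replicate numbers and lines are group means. Mdh1 is the only gene here whose cKO points (46.7 and 12.3 CPM) both lie under every WT point, and WT replicate 1 lies among or under the cKO points for most genes.

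**Figure D2:**
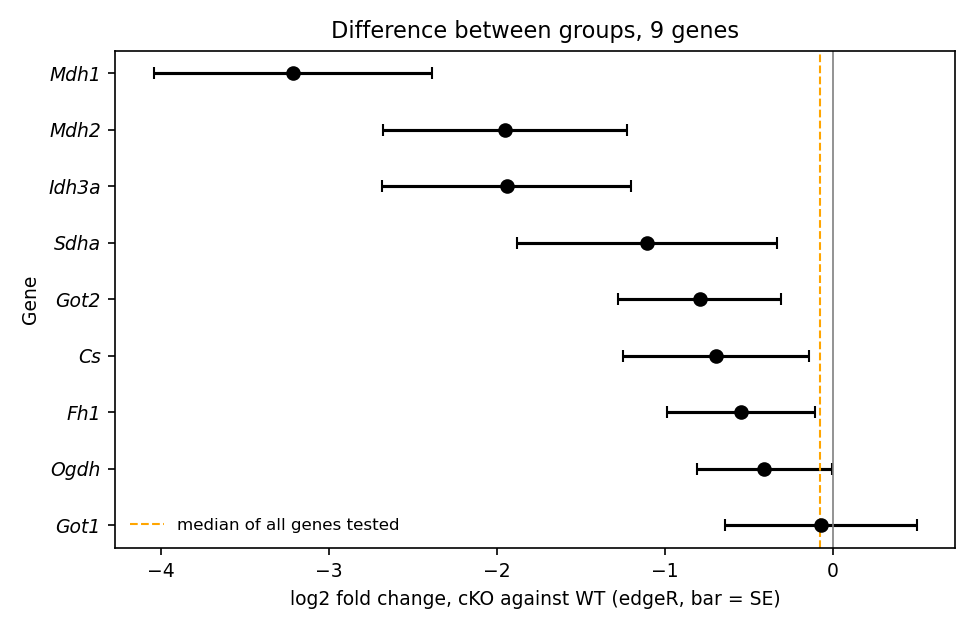
Log2 fold change of cKO against WT for each gene (points, edgeR) with its standard error (bars); the dashed line is the median of all genes tested (-0.08). The 9 points run from -3.21 for Mdh1 to -0.07 for Got1.

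Among the enzymes of the shuttle, Mdh1 (ENSMUSG00000020321.15, chr11:21556787-21572367, minus strand) encodes the cytosolic malate dehydrogenase, which reduces oxaloacetate to malate with cytosolic NADH. In cKO it stood at 46.7 CPM in replicate 1 and 12.3 CPM in replicate 2. It ranged from 71.4 to 459 CPM in WT with a median of 286 CPM. The cKO mean of 29.5 ± 24.3 CPM (SD, n = 2) compared with a WT mean of 283 ± 165 CPM (SD, n = 6), which edgeR fitted as a log2 fold change of -3.21 ± 0.83 (SE, adjusted p = 0.369). All 6 WT libraries lay above both cKO libraries, and WT replicates 4 to 6 (392 to 459 CPM) lay above WT replicates 1 to 3 (71.4 to 181 CPM). The lowest value rested on 9 reads, for which the exact 95% Poisson interval was 5.62 to 23.3 CPM, and the interval of the lowest WT library, WT replicate 1 with 130 reads, was 59.7 to 84.8 CPM. The intervals cover counting error only, since reads were amplified without molecular identifiers. The fitted log2 difference was -4.58 when cKO replicate 1 was left out and -2.68 when cKO replicate 2 was. It was -1.96 in the libraries numbered 1 and 2 alone. There Mdh1 was the 1 gene of the 9 with an unadjusted p under 0.05 in edgeR, against 2.38% of all genes. Exons of Mdh1 overlap those of Wdpcp on the plus strand, and these libraries do not mark strand. The row of Wdpcp held 0.507 and 2.73 CPM in cKO and 1.65 to 16.4 CPM in WT, and its part in the Mdh1 difference was not tested.

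Mdh2 (ENSMUSG00000019179.10, chr5:135778480-135790398, plus strand) encodes the mitochondrial malate dehydrogenase, which serves both the shuttle and the last step of the cycle. It had 144 and 72.4 CPM in cKO and from 81.9 to 619 CPM in WT with a median of 465 CPM. WT replicate 1, at 81.9 CPM, lay between the cKO libraries, and the other 5 WT libraries lay above both. The cKO mean of 108 ± 50.4 CPM (SD, n = 2) compared with a WT mean of 420 ± 218 CPM (SD, n = 6), which edgeR fitted as a log2 fold change of -1.95 ± 0.72 (SE, adjusted p = 0.369; unadjusted p = 0.0177). It was -0.85 in the libraries numbered 1 and 2 alone, -0.75 with the detected genes covariate and -0.70 with the replicate number as a block, and it was -2.60 without cKO replicate 1.

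Got1 (ENSMUSG00000025190.13, chr19:43499752-43524605, minus strand) encodes the cytosolic aspartate aminotransferase, which turns aspartate into oxaloacetate for Mdh1. It had 39.6 and 26.0 CPM in cKO and from 13.2 to 55.1 CPM in WT with a median of 35.0 CPM. Both cKO libraries lay inside the WT range, and the fitted log2 fold change was -0.07 ± 0.57 (SE, adjusted p = 0.970 by edgeR). Its mitochondrial partner Got2 (ENSMUSG00000031672.8, chr8:95864134-95888547, minus strand), which returns aspartate to the shuttle, had 131 and 49.2 CPM in cKO and from 102 to 229 CPM in WT with a median of 159 CPM. Here cKO replicate 1 lay inside the WT range and cKO replicate 2 below all WT libraries. The fitted difference of Got2 was -0.79 ± 0.49 on the log2 scale (SE, adjusted p = 0.514 by edgeR), and it was -1.74 when cKO replicate 1 was left out and -0.32 when replicate 2 of cKO was.

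The ratio of the mitochondrial to the cytosolic partner within a library does not depend on the scaling between libraries. It was taken per length, as the log2 ratio of the deposited TPM (a length-scaled share of transcripts) with 1 added. For Mdh2 to Mdh1 the log2 ratio was 2.60 and 3.40 in cKO replicates 1 and 2 and 1.10, 1.87, 1.69, 1.21, 1.30 and 1.23 in WT replicates 1 to 6. Both cKO libraries therefore lay above all WT libraries, with means of 3.00 ± 0.57 (SD, n = 2) and 1.40 ± 0.31 (SD, n = 6), a difference of 1.60. The exact two-sided permutation test gave p = 0.036, the smallest that the 28 splits of 8 libraries into 2 and 6 can give, and a Benjamini-Hochberg adjusted p = 0.071 over the 2 ratios. The difference was 1.51 in the libraries numbered 1 and 2 alone, 1.997 without cKO replicate 1 and 1.198 without cKO replicate 2, and the sets of libraries left there are too small for the exact test to reach 0.05. For Got2 to Got1 the log2 ratio was 1.34 and 0.26 in cKO and from 1.15 to 2.53 in WT, a difference of -1.13 with overlap between the groups (exact permutation p = 0.107, Benjamini-Hochberg adjusted p = 0.107). This difference was -1.67 when cKO replicate 1 was left out and -0.59 when replicate 2 of cKO was. So the mean ratio to the cytosolic partner was higher in cKO for the malate dehydrogenases and lower for the aminotransferases. Neither difference passed after adjustment. An adjusted p under 0.05 would need both ratios at the smallest exact permutation p, so Mdh2 to Mdh1 could not pass on its own, whatever its size.

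**Figure D3:**
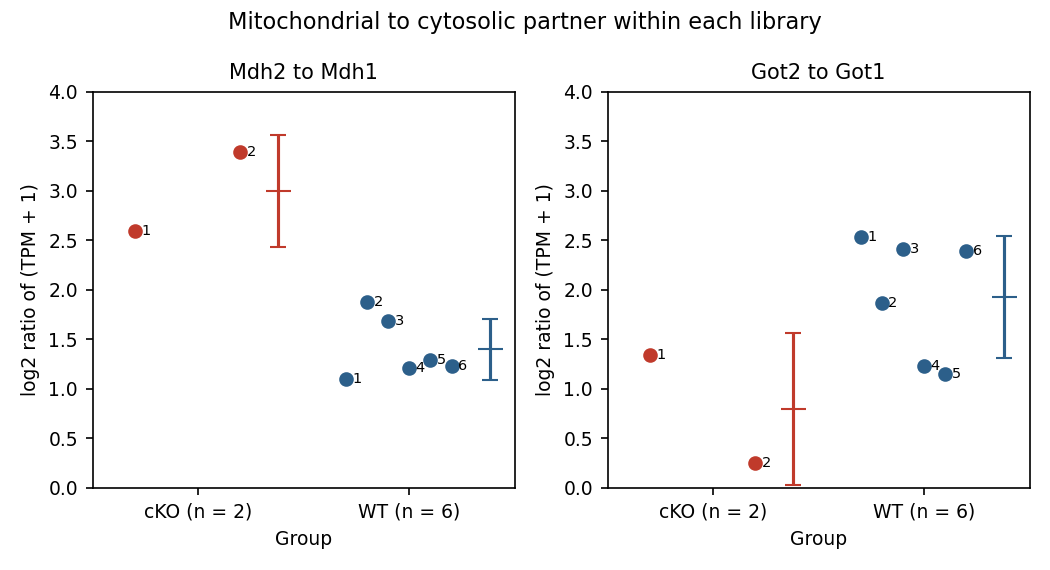
Log2 ratio of (TPM + 1) of the mitochondrial to the cytosolic enzyme gene within each library, for Mdh2 to Mdh1 (left) and Got2 to Got1 (right); points are libraries with their replicate numbers, and bars are the mean with SD of 2 cKO and 6 WT libraries. For Mdh2 to Mdh1 the cKO points (2.60 and 3.40) lie above the highest WT point (1.87), and for Got2 to Got1 the groups overlap.

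Of the cycle enzymes outside the shuttle, Cs (ENSMUSG00000005683.8, chr10:128337734-128362479, plus strand) encodes citrate synthase, which joins acetyl-CoA to oxaloacetate. It had 109 and 41.0 CPM in cKO and from 53.3 to 167 CPM in WT with a median of 142 CPM, which edgeR fitted as a log2 fold change of -0.69 ± 0.56 (SE, adjusted p = 0.612). Replicate 2 of cKO was below all WT libraries, and WT replicates 1 and 3 were below cKO replicate 1. The fold change of Cs was -1.65 when cKO replicate 1 was left out and -0.23 when replicate 2 of cKO was. Idh3a (ENSMUSG00000032279.11, chr9:54586334-54604661, plus strand) encodes the catalytic subunit of the NAD-dependent isocitrate dehydrogenase. It had 21.8 and 23.2 CPM in cKO and from 17.03 to 163 CPM in WT with a median of 81.5 CPM, which edgeR fitted as a log2 fold change of -1.94 ± 0.74 (SE, adjusted p = 0.374; unadjusted p = 0.0206). The cKO libraries were close together, and 5 of the 6 WT libraries lay above both, with WT replicate 1 below both. The fold change of Idh3a was -1.96 when cKO replicate 1 was left out, -2.05 when replicate 2 of cKO was and -1.06 within the libraries numbered 1 and 2, and in none of these fits did it reach an unadjusted p under 0.05 in edgeR.

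Ogdh (ENSMUSG00000020456.17, chr11:6291633-6356642, plus strand) encodes the first subunit of the 2-oxoglutarate dehydrogenase complex. It had 171 and 120 CPM in cKO and from 146 to 233 CPM in WT with a median of 197 CPM. Ogdh had the narrowest WT range of the 9 genes, with the highest library 1.6 times the lowest, and edgeR fitted a log2 fold change of -0.41 ± 0.40 (SE, adjusted p = 0.682). Sdha (ENSMUSG00000021577.14, chr13:74322254-74350280, minus strand) encodes the flavoprotein subunit of succinate dehydrogenase, which is also complex II of the respiratory chain. It had 73.6 and 24.6 CPM in cKO and from 21.4 to 191 CPM in WT with a median of 106 CPM, which edgeR fitted as a log2 fold change of -1.11 ± 0.77 (SE, adjusted p = 0.560). WT replicates 4 to 6 lay at 145 to 191 CPM, while WT replicates 2 and 3 (40.7 and 66.7 CPM) lay between the cKO libraries and WT replicate 1 (21.4 CPM) below both. The fold change of Sdha was -2.19 when cKO replicate 1 was left out and -0.64 when replicate 2 of cKO was. In the libraries numbered 1 and 2 alone the sign of Sdha turned, to 0.75. Fh1 (ENSMUSG00000026526.14, chr1:175600374-175625635, minus strand) encodes fumarase, which makes the malate that Mdh2 oxidises. It had 86.8 and 68.3 CPM in cKO and from 72.1 to 154 CPM in WT with a median of 116 CPM, which edgeR fitted as a log2 fold change of -0.55 ± 0.44 (SE, adjusted p = 0.613). In the libraries numbered 1 and 2 alone it was -0.14, and Ogdh was at -0.16. Ogdh was at -0.74 when cKO replicate 1 was left out and -0.25 when replicate 2 of cKO was.

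The WT libraries themselves differed widely in these genes. The highest WT library exceeded the lowest 9.54 times for Idh3a, 8.92 times for Sdha, 7.56 times for Mdh2 and 6.42 times for Mdh1, but only 2.24 times for Got2 and 2.13 times for Fh1. WT replicate 1 had the lowest WT value for 7 of the 9 genes, and it lay below the higher cKO library for 7 of the 9 and below both for 3. WT replicate 4 lay above both cKO libraries for all 9. In cKO, replicate 2, the library with the fewest reads, was lower than replicate 1 for 8 of the 9 genes. Summed over the 9 genes the level was 823 and 437 CPM in cKO, and 635, 1342, 1052, 2049, 1942 and 2085 CPM in WT replicates 1 to 6. The sums of granulosa markers stood at 3302, 7610, 18256, 58198, 38050 and 19611 CPM in the same WT libraries. In both sums WT replicate 1 was lowest and replicates 4 to 6 were highest. Of the single granulosa markers, Inha and Hsd17b1 had this order and the others did not. Foxl2 had 149, 232 and 332 CPM in WT replicates 1 to 3 and 140, 92.2 and 91.4 CPM in replicates 4 to 6. The part of the markers in the spread was not tested. Oocyte markers, which an imprecise cut could add, summed to 34.1 and 52.3 CPM in cKO. In WT they reached 1728 CPM in replicate 6, 499 CPM in replicate 2 and 167 CPM in replicate 1, and lay between 7.25 and 19.3 CPM in replicates 3 to 5. Stroma markers summed to 281 and 1154 CPM in cKO and from 16.1 to 875 CPM in WT, endothelial markers to 234 and 236 CPM and from 71.4 to 363 CPM, theca markers to 113 and 273 CPM and from 91.9 to 482 CPM, and blood markers to 71.0 and 438 CPM and from 22.5 to 371 CPM. The sums of these 4 lists overlapped between the groups. By single genes, 6 of 6 stroma markers (median log2 fold change 0.90) and 4 of 5 endothelial markers (median 0.82) had a higher fitted level in cKO, and 8 of the 9 oocyte markers tested had a lower one (median -3.15). Of theca markers 3 of 5 were lower and of blood markers 3 of 7. At an unadjusted p under 0.05 in edgeR stood 5 of the 10 granulosa markers, lower, against 8.89% of all genes tested. Of the 6 stroma markers 1 did, higher, against 3.4% of all genes tested. The part of these cell types in the differences was not tested.

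Over the 8 libraries the 9 genes varied mostly in the same direction. Of their 36 pairs, 12 had a Pearson correlation of log2(CPM + 1) above 0.8, and the median was 0.73. The highest was that of Mdh1 with Mdh2 (r = 0.94, and r = 0.97 over the 6 WT libraries alone), followed by Mdh2 with Idh3a (r = 0.93). The lowest was that of Got1 with Ogdh (r = 0.06, and r = -0.04 over the 6 WT libraries alone). Over WT alone, Got2 with Ogdh (r = -0.68, from 0.45 over the 8) and Cs with Ogdh (r = -0.07) were also below 0. The other pairs were above 0 there. The points share library quality and cell makeup, and the values are given as a description. The genes outside the list whose log2(CPM + 1) followed the mean profile of the 9 most closely were the ribosomal protein genes Rpl10 (r = 0.998) and Rpl3 (r = 0.997), Erh (r = 0.995), Tomm22, which encodes a receptor of the protein import machinery in the outer mitochondrial membrane (r = 0.994), and Uqcrfs1, which encodes the iron-sulfur subunit of respiratory complex III (r = 0.991). Of 13995 named genes compared in this way, 742 (5.3%) had r above 0.9.

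Levels can be compared between genes only per length. By the deposited TPM, the medians over the 6 WT libraries were 351 for Mdh2, 132 for Mdh1, 114 for Fh1, 61.8 for Got2, 57.3 for Sdha, 48.0 for Ogdh, 41.4 for Cs, 32.4 for Idh3a and 14.9 for Got1. Neighbours in this order overlapped in their WT ranges, except Fh1 (93.6 to 143 TPM) and Got2 (44.7 to 68.7 TPM). The length behind a TPM value differed between libraries, from 643 to 2403 bases for Idh3a and from 150 to 273 bases for Sdha, while that of Mdh1 was 530.5 bases in every library. In at least 1 library it was shorter than the shortest annotated transcript (GENCODE M21) for all 9 genes, and in every library for 6 of them. With CPM per kilobase of the longest annotated coding transcript instead, a measure chosen after seeing these lengths, the WT medians were 320 for Mdh2, 135 for Mdh1, 62.8 for Got2, 48.6 for Cs, 47.8 for Ogdh, 44.2 for Fh1, 36.5 for Sdha and 31.6 for Idh3a, with Got1 lowest (6.41 to 26.8 over the WT libraries). Both orders put the malate dehydrogenases highest and Idh3a and Got1 lowest, and Fh1 had rank 3 in the one and rank 6 in the other.

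The other genes of these routes lay in the same direction in most lists. Over 7 lists with 48 genes, 46 were tested. In cKO, 36 had a lower and 10 a higher fitted level, with a median log2 fold change of -1.05, where 52.7% of all genes were lower with a median of -0.08. None passed the adjusted threshold in edgeR, and DESeq2 called 3 of the 35 that have an adjusted p there, against 3.47% of all genes. At an unadjusted p under 0.05 there were 13 lower genes and 1 higher gene, against 8.89% and 3.4% of all genes. The median of the list genes was -0.24 in the libraries numbered 1 and 2 alone, where that over all genes was -0.03. With detected genes as a covariate it was -0.26, and that over all genes was -0.26 as well. With either of these 0 of the list genes had an unadjusted p under 0.05 in edgeR. The share of all genes was 2.38% and 3.24% there, against 12.3% with all libraries and no covariate. The 14 list genes became 6 when cKO replicate 1 was left out (12.7% of all genes), 6 when cKO replicate 2 was (5.29%) and 23 when WT replicate 1 was (20.2%). In each list, genes with the smallest p are named.

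Among the other TCA enzymes, 11 of 12 were lower (median -1.18), and 5 of these had an unadjusted p under 0.05. Sdhc, a membrane anchor of succinate dehydrogenase, had 33.5 and 16.4 CPM in cKO and from 31.3 to 151 CPM in WT, which edgeR fitted as a log2 fold change of -2.01 ± 0.61 (SE, adjusted p = 0.369). The carriers of the malate-aspartate shuttle and the enzymes of the parallel glycerol phosphate shuttle were lower in 5 of 5 (median -1.05), and 0 of the 5 had an unadjusted p under 0.05. Slc25a12, an aspartate-glutamate carrier, had 11.7 and 10.9 CPM in cKO and from 17.6 to 32.8 CPM in WT with no overlap (log2 fold change -1.14 ± 0.56, SE). Gpd1, the cytosolic glycerol phosphate dehydrogenase, was at -2.68 ± 1.28 (SE) and rested on 6 reads in cKO. The other shuttle carriers, Slc25a11 at -0.99 and Slc25a13 at -1.05, were named after their values were seen.

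Of the genes for the entry of pyruvate, 6 of 7 were lower (median -1.19), and 2 had an unadjusted p under 0.05. Mpc2, a subunit of the mitochondrial pyruvate carrier, had 20.3 and 5.46 CPM in cKO and from 23.1 to 117 CPM in WT with no overlap, which edgeR fitted as a log2 fold change of -2.41 ± 0.69 (SE, adjusted p = 0.369). Pdhb, a subunit of pyruvate dehydrogenase, was at -1.37 ± 0.60 (SE), with WT replicate 1 between the cKO libraries. The kinases and phosphatases that switch pyruvate dehydrogenase off and on lay on both sides, with 4 of 7 lower (median -0.41). Pdk3 was at -2.96 ± 1.01 (SE, 5 reads in cKO) and Pdk2 at -1.48 ± 0.65 (SE), both with no overlap, while Pdk1, named here after its values were seen, had 39.1 and 35.5 CPM in cKO and from 13.3 to 23.4 CPM in WT, which edgeR fitted as a log2 fold change of 1.01 ± 0.46 (SE, adjusted p = 0.405).

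Among enzymes and carriers that draw citrate, malate or glutamate from or into the cycle, 8 of 9 were lower (median -0.91). Glud1, glutamate dehydrogenase, had 38.6 and 34.1 CPM in cKO and from 56.6 to 117 CPM in WT with no overlap, which edgeR fitted as a log2 fold change of -1.42 ± 0.44 (SE, adjusted p = 0.369). Me1, the cytosolic malic enzyme, was at -2.59 ± 0.94 (SE), with WT replicate 1 (7.69 CPM) below both cKO libraries (17.3 and 15.03 CPM) and WT replicate 4 at 196 CPM. The assembly factors of succinate dehydrogenase lay on both sides, with 2 of 4 lower, Sdhaf4 at -1.81 ± 0.86 (SE) and Sdhaf2 at -0.81 ± 0.66 (SE). Of the paralogs of the 9 genes, Dhtkd1, an enzyme of lysine breakdown related to Ogdh, had 26.4 and 24.6 CPM in cKO and from 3.49 to 21.4 CPM in WT (log2 fold change 1.06 ± 0.66, SE, edgeR adjusted p = 0.518). Ogdhl was at 0.01 ± 0.84 (SE). Mdh1b and Got1l1 were too low to be tested, with 0 reads of Mdh1b in any library and 2 reads of Got1l1 in all. A count of 0 allows up to 0.636 to 4.61 CPM per library, here without TMM scaling.

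**Figure D4:**
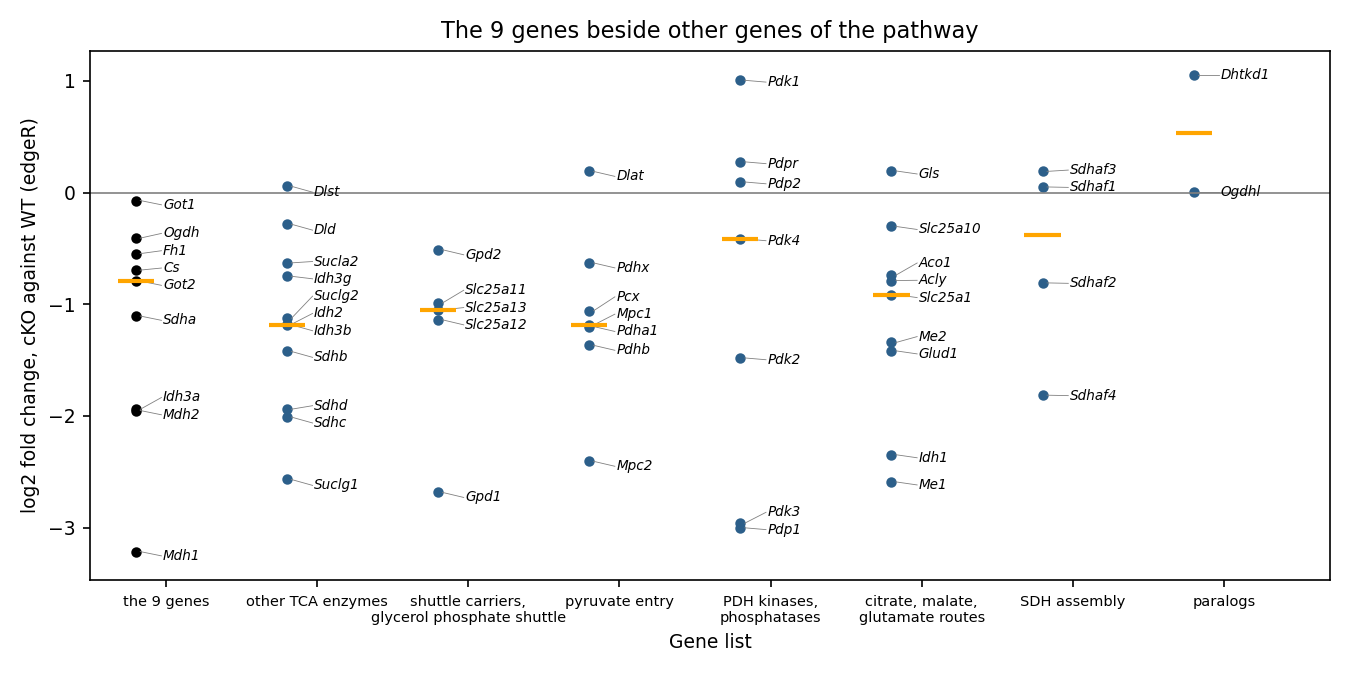
Log2 fold change of cKO against WT (edgeR) for the 9 genes (black) and 45 of the 46 tested genes of 7 other lists (blue), each point 1 gene, with the median of the whole list as an orange line; none had an adjusted p under 0.05. The 9 genes have a median of -0.79 and the other TCA enzymes one of -1.18, and Pdk1 and Dhtkd1 lie highest.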

How the data were processed

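Per-library tables of estimated counts, TPM and lengths were deposited by the authors. HISAT2, Salmon and mm10 are named, with no version, in the submitters' processing notes, and the annotation was not given in the sources used here. Of 36635 rows, 1548 name no gene, carry 0.435% to 0.739% of reads and were left out. Estimated counts were rounded, genes kept by filterByExpr (minimum count 10, minimum total 15), scaled by TMM and compared with edgeR 4.0.16 (quasi-likelihood, group as the only term, all 8 libraries) in R 4.3.3, with Benjamini-Hochberg adjustment over 15102 genes and a threshold of 0.05. The code was tested on simulated data. SEs come from the F statistic. The exact permutation test took the absolute difference of means over 28 splits. The typical gene sat at -0.08 (median log2 fold change) under TMM and at 0.05 under the size factors of DESeq2.

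Depth was 651426 to 4719293 reads per library. All pairs of libraries differed beyond sampling noise (chi-square per degree of freedom at least 13.4). The 9 genes and all lists were chosen with earlier results of these data known. Named genes were the 9, Hif1a, the 2 genes with the smallest p of each list, and the 5 genes most like the mean profile of the 9; exceptions are stated, and 1 gene of the other lists, counted there, is not reported here. Coordinates are from GENCODE M21 (GRCm38, which mm10 denotes) and promoter sequences from RefSeq (GRCm38.p6). Figures were drawn with matplotlib 3.10.9. Alternatives were other scalings and filters, DESeq2 1.42.0, limma 3.58.1, log2(TPM + 1), a replicate block, detected genes (5 reads) as a covariate, the mitochondrial genome removed, fewer libraries, and for the ratios another pseudocount or CPM.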

Additional observations from a re-analysis of the deposited data

How the results depend on the processing

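With only 2 cKO libraries, one of 651426 reads, each difference rests on few reads, and the groups also differ in detected genes. Of 171 refits of single genes of the 9, 150 kept their sign and stayed on the same side of the threshold, 3 passed it and 18 turned in sign, 12 of these in Got1. Without a filter 2 of the 9 passed, Mdh1 (edgeR adjusted p = 0.000227) and Idh3a (adjusted p = 0.0392), and 478 of the 25322 genes fitted. DESeq2 called 1 of the 9 and 269 of the 7757 genes with an adjusted p. The fit on log2(TPM + 1) called 6 genes, and the other lists had a median of -0.51 there. Over the alternatives the adjusted p of Mdh1 ranged from 0.000227 to 1.

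The replicate numbers were not shown to pair the libraries: deviations from the group means correlated at -0.289 for number 1 and -0.165 for number 2. No cKO library shares a number with WT replicates 3 to 6. A block on the number therefore takes the difference from the libraries numbered 1 and 2 alone. It leaves almost no residual degrees of freedom, so few small p-values could arise. With the replicate number as a block, 0 of the 9 and 0 of the other list genes had an unadjusted p under 0.05, against 1.19% of all genes (12.3% in the fit without the block), 1 gene of the whole table passed, the median of the 9 was -0.47 and that of the other lists -0.23, and Got1 turned to 0.35 and Sdha to 0.55. With detected genes as a covariate these counts were 0 and 0 (3.24% of all genes). The medians were 0.0173 and -0.26 there, where that over all genes was -0.26. Got1 (0.95), Cs (0.0173), Ogdh (0.28), Sdha (1.23) and Fh1 (0.34) turned with this covariate. In the libraries numbered 1 and 2 alone, a split known from earlier results, 1 of the 9 and 0 of the other list genes had an unadjusted p under 0.05 (2.38% of all genes), the other lists had a median of -0.24, Got1 turned to 0.22 and Sdha to 0.75, and the log2 ratio of Mdh2 to Mdh1 differed by 1.51 (exact permutation p = 0.333). Got1 was also at 0.0516 with DESeq2's size factors, 0.0538 with no scaling factor, 0.0518 in DESeq2, at 0.12 with 10 reads in 6 libraries, and at 0.20 on log2(TPM + 1). The causes of these changes were not tested.

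Leaving out 1 WT library at a time gave 3 of the 9 at an unadjusted p under 0.05 in edgeR, against 9.01% to 20.2% of all genes. Of the other list genes there were from 10 to 23 (23 without WT replicate 1), and 0 genes passed the adjusted threshold. Over all refits without 1 library, cKO ones included, the median of the 9 ranged from -1.74 without cKO replicate 1 to -0.46 without cKO replicate 2. The median over all genes was -0.27 in the former refit and -0.34 in the latter. The Mdh2 to Mdh1 difference ranged from 1.198 to 1.997, and without either cKO library the exact permutation test cannot go below 0.143. Got1 lay between -0.48 without cKO replicate 1 and 0.14 without WT replicate 4, and turned to 0.12 without cKO replicate 2 and to 0.07 and 0.13 without WT replicates 2 and 5.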

Other observations

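Subunits of 1 enzyme complex differed in how far their levels spread over the 6 WT libraries. Among the 4 subunits of succinate dehydrogenase, the highest WT library exceeded the lowest 34.8 times for the membrane anchor Sdhd (2.75 to 95.6 CPM), 8.92 times for Sdha and 4.83 times for Sdhc, but 2.22 times for Sdhb (207 to 458 CPM). Sdhb and Sdhd also differed in where the cKO libraries lay. Both cKO libraries (188 and 60.1 CPM) were below all WT libraries for Sdhb, while for Sdhd (16.7 and 5.46 CPM) WT replicate 1 was below both. In the NAD-dependent isocitrate dehydrogenase the spread was 9.54 times for Idh3a, 4.60 times for Idh3b and 2.39 times for Idh3g. In succinyl-CoA ligase it was 14.2 times for Suclg1, the subunit shared by both forms of the enzyme, 5.05 times for Sucla2 and 2.15 times for Suclg2. The subunits Ogdh, Dlst and Dld of the 2-oxoglutarate dehydrogenase complex spread 1.60, 2.24 and 2.60 times. These genes were picked for their complexes after the values were seen, and no test of the differences in spread was run.

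Dlst, the succinyltransferase of that complex, was the 1 of the 12 other TCA enzymes with a higher fitted level in cKO, at 0.06 ± 0.45 (SE, edgeR adjusted p = 0.970), with 149 and 75.1 CPM in cKO and from 81.3 to 182 CPM in WT.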
